A study of Homo sapiens with 12 samples.

Results

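Acetyltransferase coactivators were followed in EP300 knockdown cells through 10 genes: the acetyltransferase genes EP300, CREBBP, KAT2A, KAT2B, KAT6B, KAT7 and KAT8, and the genes NCOA1, NCOA2 and NCOA3 of the p160 coactivators. Members were found by gene symbol. Each of the 10 had 1 row among 29094 rows of the count table, and all 10 were among the 13424 rows that passed the filter on low counts. The cells were MCF10AT, an established human line that derives from mammary epithelium and carries an activated HRAS, which all groups share. The groups were the lines EP300 KD1 and EP300 KD2, each with a different lentiviral shRNA against EP300, and the lines NS1 and NS2, each with a non-silencing control. All 4 lines had been selected with puromycin, and each gave 3 libraries of polyadenylated RNA (12 in all, with 31396653 to 45606950 counts each). The labels speak of corresponding controls without naming the pairs, so each hairpin was set against the control of the same number. Nor is it stated that the 3 libraries per line are separate cultures, so that p-values rest on library-to-library spread that could be technical.

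Lysine acetyltransferases move the acetyl group of acetyl-CoA to lysines of histones and other proteins, deacetylases remove it, and bromodomain and related proteins read it. EP300 and CREBBP are large paralogous enzymes that many transcription factors recruit to enhancers and promoters. KAT2A and KAT2B are alternative catalytic subunits of the SAGA and ATAC complexes. KAT6B, KAT7 and KAT8 belong to the MYST family and work with scaffold subunits that help to select the histone they act on. The p160 proteins NCOA1, NCOA2 and NCOA3 bind nuclear receptors and bring in EP300 or CREBBP. NCOA3 is also known as a gene amplified in breast cancer.

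The promoters of 4 members are shown because the results turn on these genes: the shRNA target EP300, its paralogue CREBBP, and KAT2B and NCOA3, both of which rose with the first hairpin. Each line holds the 250 bases before the gene's start, 5′ to 3′ on the gene's own strand, from RefSeq (GRCh38.p14). Capitals mark a GC box (GGGCGG, or CCGCCC on the other strand) or a CRE core (TGACG or CGTCA), the letters that CREB family factors bind. The windows are chr22:41092342-41092591 on the plus strand for EP300, chr16:3880714-3880963 on the minus strand for CREBBP, chr3:20040196-20040445 on the plus strand for KAT2B and chr20:47501637-47501886 on the plus strand for NCOA3.
EP300: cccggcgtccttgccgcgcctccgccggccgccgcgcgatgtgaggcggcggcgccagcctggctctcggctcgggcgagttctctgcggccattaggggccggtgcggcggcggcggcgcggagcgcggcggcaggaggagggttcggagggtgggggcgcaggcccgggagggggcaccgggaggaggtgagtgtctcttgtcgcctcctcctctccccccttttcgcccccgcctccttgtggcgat
CREBBP: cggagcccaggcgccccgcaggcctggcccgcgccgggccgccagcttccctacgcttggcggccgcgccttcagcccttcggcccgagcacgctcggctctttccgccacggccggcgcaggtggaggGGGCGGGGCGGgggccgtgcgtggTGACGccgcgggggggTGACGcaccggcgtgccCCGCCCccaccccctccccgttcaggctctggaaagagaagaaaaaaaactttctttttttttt
KAT2B: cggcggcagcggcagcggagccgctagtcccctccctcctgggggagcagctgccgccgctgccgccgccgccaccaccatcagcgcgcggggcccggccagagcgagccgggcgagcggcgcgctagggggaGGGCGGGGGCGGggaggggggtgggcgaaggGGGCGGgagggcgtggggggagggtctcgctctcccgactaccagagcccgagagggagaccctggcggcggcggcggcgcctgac
NCOA3: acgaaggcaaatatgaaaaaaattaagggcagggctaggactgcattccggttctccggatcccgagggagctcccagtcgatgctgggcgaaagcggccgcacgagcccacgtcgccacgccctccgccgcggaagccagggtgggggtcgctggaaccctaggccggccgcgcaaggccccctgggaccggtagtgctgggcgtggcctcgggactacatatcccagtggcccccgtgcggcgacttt
The EP300 window held neither motif, and 76.8% of its bases were G or C, against a median of 58.0% over 35116 RefSeq windows of the same length. The CREBBP window (72.4% G or C) held 2 CRE cores and 3 GC boxes, of which 2 overlap. The KAT2B window (80.8%) held 3 GC boxes, of which a pair lie end to end, and no CRE core, and the NCOA3 window (66.4%) held neither. Over all windows, 42.6% had at least 1 GC box and 21.2% at least 1 CRE core. Of 4 other motifs searched on both strands, the TEAD site GGAATG occurred 1 time, in the NCOA3 window (11.9% of all windows), and the CCAAT box CCAAT (32.0%), the E-box CACGTG (6.34%) and the AP-1 site TGANTCA (6.57%) in none of these windows. A match is a run of letters and says nothing of binding; KAT2B and NCOA3 had none of these motifs in common.

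With the first hairpin (EP300 KD1 set against NS1), 8 of the 10 genes passed the test: NCOA3, KAT2B, NCOA2, NCOA1 and KAT8 rose, and EP300, KAT2A and KAT6B fell. Over all rows tested the share called was 64.9% (32.6% higher and 32.3% lower), so that a call on its own does not set these genes apart. In 8 of the 10 the 3 libraries of each group did not overlap, against 67.7% of all rows. The median absolute log2 change was 0.16 over the 10 genes and 0.24 over all rows, but EP300, NCOA3 and KAT2B lay further out: 17.3%, 19.6% and 20.8% of all rows moved at least as far in either direction. With the second hairpin (EP300 KD2 set against NS2), 4 of the 10 passed: NCOA2 rose, and EP300, KAT6B and KAT7 fell. The share called over all rows was 57.8% (27.9% higher and 29.9% lower). In 5 of the 10, these and KAT2A, the groups did not overlap, against 63.5% of all rows, and the median absolute log2 change was 0.06 over the 10 genes and 0.20 over all rows. The split over all rows in this comparison depended on the scaling: 3744 rows were higher and 4018 lower with TMM, 4979 and 3144 with library totals alone, 4630 and 3358 with upper-quartile factors, and 4660 and 3443 without the filter.

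**Figure D1:**
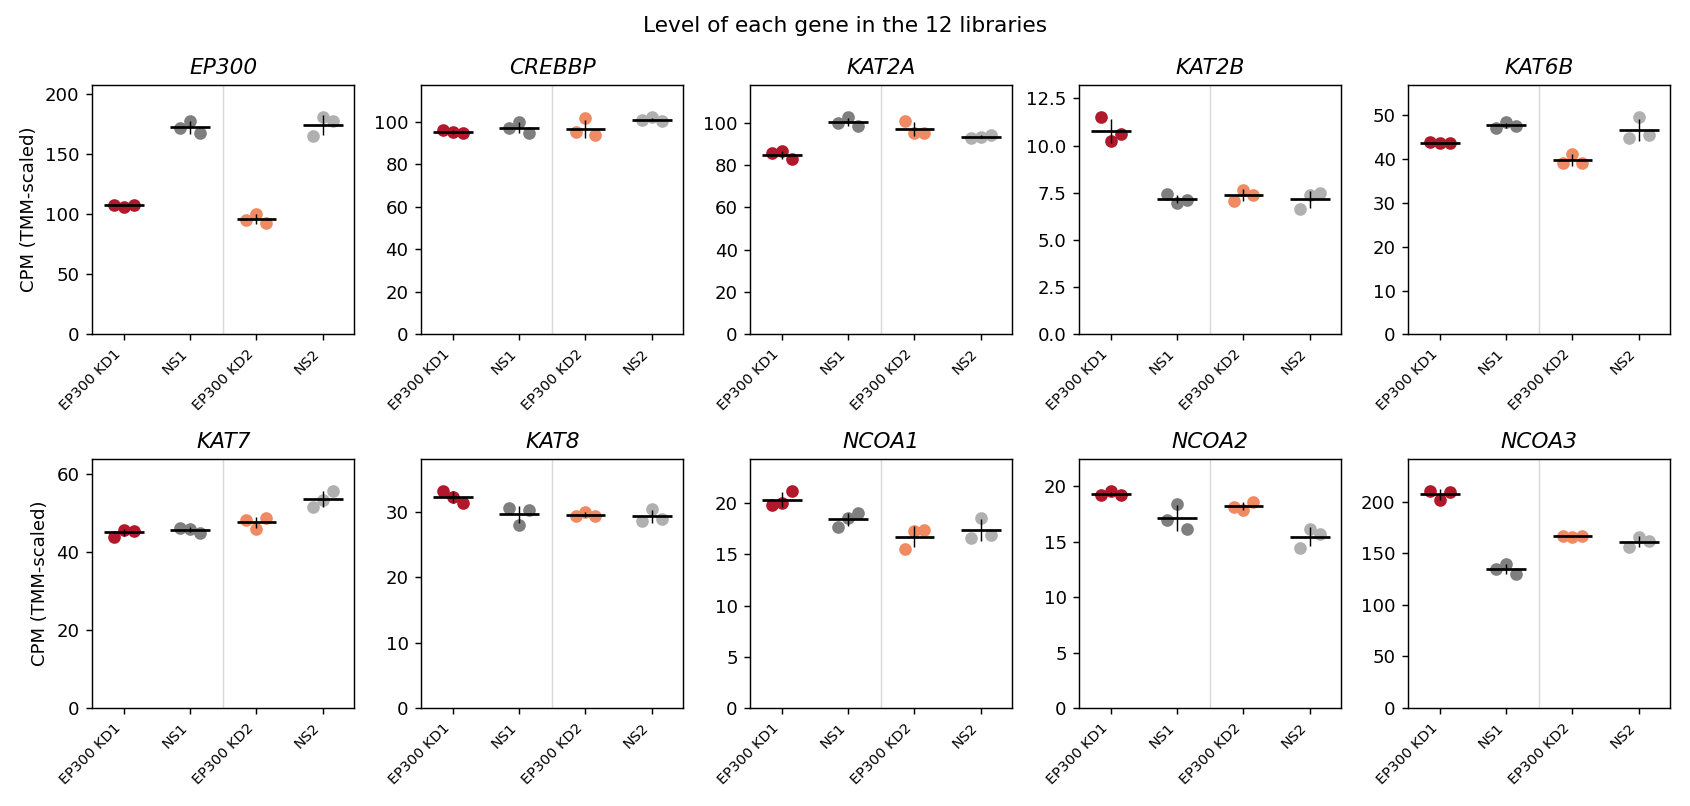
Level of each of the 10 genes in the 12 libraries. The y axis is CPM (TMM-scaled, from 0), points are libraries, horizontal bars are group means and vertical lines the SD (n = 3). EP300 lies between 92.3 and 108 CPM in all shRNA libraries and between 165 and 180.3 CPM in all controls, whereas CREBBP lies between 93.7 and 102 CPM in all 12.

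The target was examined first, and every shRNA library lay below every control library. EP300, the gene of p300 (NM_001429; chr22:41092592-41180077, GRCh38 as for all genes here), measured 108, 106 and 108 CPM in EP300 KD1, against 171, 177 and 167 CPM in NS1. It measured 95.1, 99.9 and 92.3 CPM in EP300 KD2, against 165, 180.3 and 177 CPM in NS2. CPM give a count relative to the library's total after TMM, a scaling that allows for differences in composition. The level was 62.4% of the NS1 mean in EP300 KD1 (log2 fold change -0.68 ± 0.03, SE, edgeR adjusted p = 2.6e-12) and 55.0% of the NS2 mean in EP300 KD2 (-0.86 ± 0.04, adjusted p = 1.1e-13). In EP300 KD2 10.5% of all rows tested moved at least as far from NS2 as EP300 did. Bulk RNA gives a mean over cells, so that fewer cells holding a transcript and less of it per cell cannot be told apart.

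The fall of EP300 was 0.18 log2 units smaller with the first hairpin than with the second (SE 0.05, edgeR adjusted p = 0.0049). The share of rows called in this comparison of the hairpins was 50.8%. The EP300 difference did not pass with library totals alone (0.11, adjusted p = 0.063). EP300 itself was level between the control lines, with 174 ± 8.14 CPM in NS2 and 172 ± 5.11 CPM in NS1 (SD, n = 3 each), a log2 difference of 0.02 that did not pass (adjusted p = 0.73).

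CREBBP, the gene of CBP and the closest relative of EP300 (NM_004380; chr16:3725054-3880713), did not pass the test with either hairpin. It measured 96.4, 95.3 and 94.6 CPM in EP300 KD1, against 97.2, 99.9 and 94.9 CPM in NS1. It measured 95.1, 102 and 93.7 CPM in EP300 KD2, against 101, 102 and 100.5 CPM in NS2. Libraries overlapped in both sets. The log2 differences were -0.03 (95% interval -0.09 to 0.04, edgeR adjusted p = 0.45) and -0.06 (95% interval -0.13 to 0.00, adjusted p = 0.092). The upper ends of these intervals were at 0.04 and 0.00. One library decided the second call, since without EP300 KD2 replicate 2 CREBBP passed as lower (-0.10, adjusted p = 0.010). With library totals alone its sign turned (0.01).

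The balance between both genes of the pair moved away from EP300. EP300 made up 52.9% ± 0.280 of the counts of EP300 and CREBBP together in EP300 KD1, against 63.9% ± 0.0988 in NS1 (SD, n = 3). The share was 49.7% ± 0.244 in EP300 KD2, against 63.2% ± 1.02 in NS2. The summed level of the pair was 203 ± 1.42 CPM in EP300 KD1 against 269 ± 7.60 CPM in NS1, and 193 ± 8.05 CPM in EP300 KD2 against 275 ± 8.59 CPM in NS2. These shares follow from the same counts as the tests above and are a description.

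**Figure D2:**
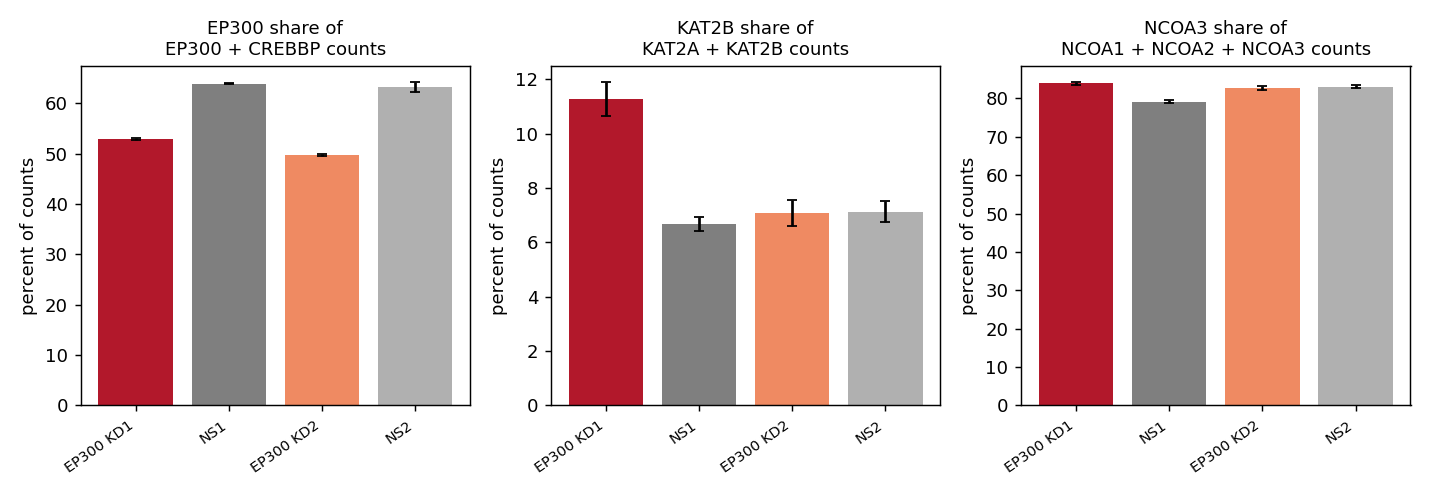
Share of the counts of a family that came from 1 member, as mean percent with SD (n = 3) by group. The share of EP300 in the EP300 and CREBBP pair is lower in both shRNA groups than in their controls. The shares of KAT2B in the KAT2A and KAT2B pair and of NCOA3 among the p160 genes are higher in EP300 KD1 than in NS1, and no higher in EP300 KD2 than in NS2.

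KAT2A and KAT2B moved in opposite directions with the first hairpin. KAT2A, the gene of GCN5 (NM_021078; chr17:42113111-42121367), measured 85.5, 86.4 and 82.6 CPM in EP300 KD1, against 99.9, 102 and 98.5 CPM in NS1. All EP300 KD1 libraries lay below all NS1 libraries, and KAT2A fell by 0.24 on the log2 scale (SE 0.03, edgeR adjusted p = 7.9e-07). KAT2B, the gene of PCAF (NM_003884; chr3:20040446-20154404), measured 11.5, 10.2 and 10.6 CPM in EP300 KD1, against 7.41, 6.98 and 7.11 CPM in NS1. These groups did not overlap either, and KAT2B rose to 150.3% of the NS1 mean (log2 0.59 ± 0.07, adjusted p = 1.3e-06). KAT2B had the fewest reads of the 10 genes, at 210 to 365 counts a library.

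Neither gene passed with the second hairpin. KAT2A measured 101, 95.1 and 95.03 CPM in EP300 KD2, against 92.6, 93.3 and 94.0 CPM in NS2. The EP300 KD2 libraries all lay above the NS2 libraries, yet the log2 difference of 0.06 did not pass (95% interval -0.01 to 0.12, edgeR adjusted p = 0.11). KAT2A passed as higher with library totals alone, upper-quartile factors, DESeq2 size factors and no filter (0.07 to 0.13). KAT2B measured 7.04, 7.67 and 7.38 CPM in EP300 KD2, against 6.64, 7.37 and 7.47 CPM in NS2, and the libraries overlapped (log2 0.04, 95% interval -0.12 to 0.20, adjusted p = 0.70).

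The test of the difference passed for both genes of the pair. The change of KAT2A was lower with the first hairpin than with the second by 0.30 log2 units (SE 0.04, edgeR adjusted p = 7.9e-06), and that of KAT2B was higher by 0.55 (SE 0.11, adjusted p = 0.00030). KAT2B supplied 11.3% ± 0.634 of the counts of the pair in EP300 KD1 and 6.67% ± 0.268 in NS1 (SD, n = 3), and 7.07% ± 0.473 in EP300 KD2 and 7.13% ± 0.379 in NS2. KAT2A therefore remained the main gene of the pair in counts in all 4 groups. The controls differed for KAT2A, which was lower in NS2 than in NS1 (93.3 ± 0.689 against 100.3 ± 1.97 CPM, log2 -0.10 ± 0.03, adjusted p = 0.013). They differed by 0.00 log2 units for KAT2B (95% interval -0.16 to 0.16).

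Of the MYST genes, KAT6B fell with both hairpins. KAT6B, the gene of MORF (NM_012330; chr10:74824936-75032624), measured 44.0, 43.7 and 43.6 CPM in EP300 KD1, against 47.2, 48.4 and 47.6 CPM in NS1. It measured 39.1, 41.3 and 39.1 CPM in EP300 KD2, against 44.9, 49.5 and 45.5 CPM in NS2. All 6 shRNA libraries lay below all 6 controls, which held for 2 of the 10 genes, KAT6B and EP300, and for 28.3% of all rows in either direction. By the test of the average of both hairpins 8 of the 10 passed (4 higher and 4 lower), against 65.7% of all rows (32.6% higher and 33.1% lower). The falls were small, to 91.7% of the NS1 mean in EP300 KD1 (log2 -0.12 ± 0.04, edgeR adjusted p = 0.0069) and to 85.4% of the NS2 mean in EP300 KD2 (-0.23 ± 0.04, adjusted p = 3.9e-05). The difference between hairpins of 0.10 did not pass (95% interval -0.01 to 0.22, adjusted p = 0.11).

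KAT7, the gene of HBO1 (NM_007067; chr17:49788681-49835026), fell with the second hairpin and did not pass with the first. It measured 48.2, 46.1 and 48.7 CPM in EP300 KD2, against 51.7, 53.4 and 55.7 CPM in NS2 (log2 -0.17 ± 0.03, edgeR adjusted p = 0.00034). It measured 44.0, 45.7 and 45.6 CPM in EP300 KD1, against 46.2, 46.1 and 45.05 CPM in NS1 (log2 -0.02, 95% interval -0.09 to 0.05, adjusted p = 0.64). The NS2 libraries stood above all 9 others. NS2 exceeded NS1 by 0.23 ± 0.03 log2 units (adjusted p = 6.9e-05), which is more than the fall in EP300 KD2. Exons of KAT7 share 295 bases with FAM117A on the opposite strand, which measured 5.42 ± 0.763 CPM in EP300 KD1 against 3.83 ± 0.422 CPM in NS1, and 3.68 ± 0.386 CPM in EP300 KD2 against 2.99 ± 0.0762 CPM in NS2, and whose part in the KAT7 counts was not tested. Against both control lines pooled, the KAT7 call ended for EP300 KD2 (-0.06, adjusted p = 0.12) and passed as lower for EP300 KD1 (-0.13, adjusted p = 0.00076). The test of the difference between hairpins gave 0.15 (SE 0.05, adjusted p = 0.017), and it did not pass with library totals alone (0.08), with DESeq2 (0.13), without the filter (0.10), or without NS1 replicate 3 (0.13) or NS2 replicate 3 (0.12).

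KAT8, the gene of MOF (NM_032188; chr16:31117664-31131393), ranged from 31.4 to 33.2 CPM in EP300 KD1, against 28.1 to 30.6 CPM in NS1. It ranged from 29.4 to 30.0 CPM in EP300 KD2, against 28.6 to 30.4 CPM in NS2. It rose with the first hairpin without overlap of the libraries (log2 0.12 ± 0.04, edgeR adjusted p = 0.014), but the call ended with DESeq2 (0.12, adjusted p = 0.056), without NS1 replicate 2 (0.09, adjusted p = 0.072) and without EP300 KD1 replicate 1 (0.10, adjusted p = 0.061). With the second hairpin the log2 difference was 0.01 (95% interval -0.07 to 0.10, adjusted p = 0.82). The difference between hairpins of 0.11 did not pass either (95% interval -0.01 to 0.23, adjusted p = 0.13).

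Among the p160 genes NCOA3 changed most, with the first hairpin, and its change with the second did not pass. NCOA3, the gene of AIB1 (NM_181659; chr20:47501887-47656872), measured 210.0, 201 and 209.5 CPM in EP300 KD1, against 135, 139.9 and 130.1 CPM in NS1. It measured 166, 166 and 167 CPM in EP300 KD2, against 156, 166 and 162 CPM in NS2. The EP300 KD1 libraries were the highest of all 12 and the NS1 libraries the lowest. NCOA3 rose to 153% of the NS1 mean in EP300 KD1 (log2 0.62 ± 0.03, edgeR adjusted p = 1.1e-12), a larger shift than the fall of KAT2A and close in size to the fall of EP300. In EP300 KD2 the log2 difference from NS2 was 0.04 (95% interval -0.02 to 0.11, adjusted p = 0.24).

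The control lines already differed for NCOA3, which was higher in NS2 than in NS1 (161 ± 4.97 against 135 ± 4.89 CPM, log2 0.26 ± 0.03, edgeR adjusted p = 3.5e-06). Against both control lines pooled, NCOA3 passed as higher in EP300 KD1 (0.49, adjusted p = 2.6e-12) and also in EP300 KD2 (0.17, adjusted p = 9.7e-06). The EP300 KD2 change likewise passed with library totals alone (0.11), upper-quartile factors (0.09) and no filter (0.09). The difference between hairpins was 0.57 ± 0.04 (adjusted p = 1.7e-09). Exons of NCOA3 share 96 bases with exons of SULF2, which lies on the opposite strand, and whether the counting used strand is not given in the sources used here. SULF2 measured 133 ± 2.70 CPM in EP300 KD1 against 367 ± 3.33 CPM in NS1, and 82.7 ± 2.20 CPM in EP300 KD2 against 343 ± 3.53 CPM in NS2, the reverse of the NCOA3 order in the first set. Its part in the NCOA3 counts was not tested.

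NCOA2, the gene of TIF2 (NM_006540; chr8:70109782-70456446), was the only one of the 10 that passed as higher with both hairpins against the same-numbered controls. It measured 19.2, 19.6 and 19.2 CPM in EP300 KD1, against 17.0, 18.4 and 16.1 CPM in NS1. It measured 18.1, 17.9 and 18.6 CPM in EP300 KD2, against 14.5, 16.2 and 15.7 CPM in NS2. Within each set the groups did not overlap, but NS1 replicate 2 lay above 2 libraries of EP300 KD2. The log2 changes were 0.17 ± 0.06 (edgeR adjusted p = 0.0099) and 0.23 ± 0.06 (adjusted p = 0.0016), and their difference of -0.06 did not pass (95% interval -0.22 to 0.11, adjusted p = 0.57). The first call ended without NS1 replicate 3 (0.13, adjusted p = 0.059). The control lines also lay apart for NCOA2. NS2 against NS1 gave -0.15 (95% interval -0.26 to -0.03), close in size to the first change, and did not pass (edgeR adjusted p = 0.064). Over all rows tested, 15.3% were called higher and 17.3% lower with both hairpins, and 11.2% in opposite directions.

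NCOA1, the gene of SRC-1 (NM_003743; chr2:24491254-24770702), ranged from 19.8 to 21.1 CPM in EP300 KD1, against 17.7 to 19.0 CPM in NS1. It ranged from 15.5 to 17.3 CPM in EP300 KD2, against 16.6 to 18.6 CPM in NS2. Its rise with the first hairpin passed narrowly (log2 0.14 ± 0.06, edgeR adjusted p = 0.035), and the call ended with DESeq2 (0.14, adjusted p = 0.084) and without NS1 replicate 1 (0.11), NS1 replicate 2 (0.15) or EP300 KD1 replicate 3 (0.11). With the second hairpin the log2 difference was -0.06 (95% interval -0.18 to 0.06, adjusted p = 0.41). The difference between hairpins of 0.20 stood at an adjusted p of 0.047 and was lost under 6 of the other settings, at 0.13 to 0.19, and without any 1 of 5 libraries.

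The p160 genes together measured 246 ± 5.16 CPM in EP300 KD1 against 171 ± 5.85 CPM in NS1, and 201 ± 1.30 CPM in EP300 KD2 against 194 ± 6.80 CPM in NS2 (SD, n = 3). NCOA3 supplied most of these counts in every group. Its share was 83.9% ± 0.387 in EP300 KD1 against 79.1% ± 0.403 in NS1, and 82.6% ± 0.471 in EP300 KD2 against 83.1% ± 0.362 in NS2. All 10 genes summed to 666 ± 5.55 CPM in EP300 KD1 against 671 ± 15.1 CPM in NS1, where the loss of EP300 counts and the gain of NCOA3 counts were of like size. They summed to 615 ± 7.19 CPM in EP300 KD2 against 699 ± 20.3 CPM in NS2.

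**Figure D3:**
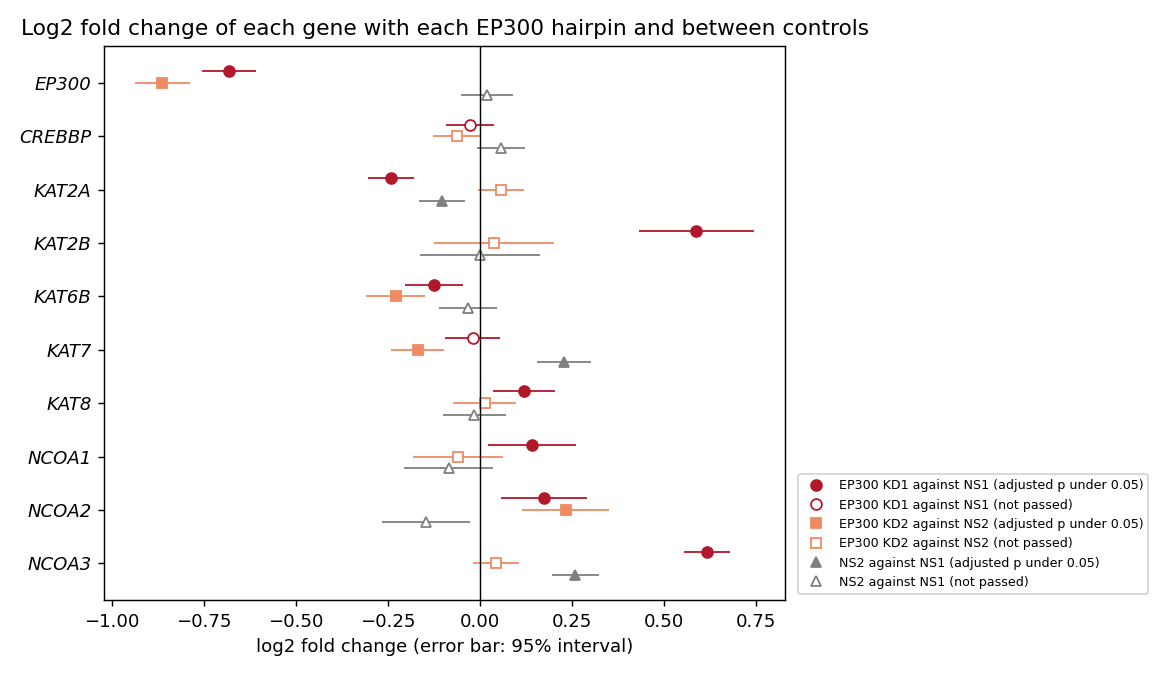
Log2 fold change of each gene (x axis, with the 95% interval) in EP300 KD1 relative to NS1, in EP300 KD2 relative to NS2 and in NS2 relative to NS1. Filled symbols passed at an adjusted p under 0.05. EP300 is lower with both hairpins, NCOA3 and KAT2B are higher with the first hairpin, and NCOA3, KAT7 and KAT2A also differ between the control lines.

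The control lines measure how far the 10 genes vary without an EP300 hairpin. Between NS2 and NS1, NCOA3 and KAT7 were higher in NS2 and KAT2A was lower, so that 3 of the 10 passed, against 27.5% of all rows (14.2% higher and 13.4% lower in NS2). In 4 of the 10, these and CREBBP, the groups did not overlap, against 40.3% of all rows. The split of those rows depended on the scaling, with 1904 higher and 1793 lower with TMM, 1606 and 2157 with library totals alone, and 1587 and 2184 with upper-quartile factors. The median absolute log2 difference was 0.07 over the 10 genes and 0.10 over all rows. For EP300 and KAT6B, and for KAT2B and KAT8 with the first hairpin alone, the larger hairpin change was several times the difference between the controls. It exceeded that difference by less for NCOA3 (0.62 against 0.26), KAT2A (-0.24 against -0.10), NCOA2 (0.23 against -0.15) and NCOA1 (0.14 against -0.08). For CREBBP the values were of like size (-0.06 against 0.06), and for KAT7 the change was the smaller (-0.17 against 0.23). Between hairpins, 6 of the 10 passed the test of the difference, KAT2A in 1 direction and EP300, KAT2B, KAT7, NCOA1 and NCOA3 in the other, against 50.8% of all rows (29.2% higher and 21.6% lower). Over all rows that split was 3915 higher and 2903 lower with TMM, 3117 and 3780 with library totals alone, and 3264 and 3601 without the filter.

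Levels of different genes were compared per kilobase of transcript, in CPM per kb. In EP300 KD1 the order was NCOA3 (44.3), KAT2A (27.3), KAT8 (21.2), EP300 (11.2), CREBBP (8.83), KAT6B (5.24), KAT7 (4.68), NCOA1 (2.94), NCOA2 (2.29) and KAT2B (2.23). The last pair overlapped between libraries and the other neighbours did not. NS1 differed from this in 1 place, with KAT2A (32.3) above NCOA3 (28.9), and its libraries overlapped for KAT8 (19.4) and EP300 (17.9). In EP300 KD2 KAT7 (4.94) and KAT6B (4.77) changed places and overlapped, and EP300 (9.99) stood just above CREBBP (8.96) without overlap. NS2 had the order of EP300 KD1, with overlap for KAT8 (19.2) and EP300 (18.2) and for KAT6B (5.59) and KAT7 (5.56). Knockdown thus left EP300 above CREBBP per kb in both shRNA lines. The length the authors counted over is not given in the sources used here. Per kilobase of coding sequence KAT7, whose reference transcript has a long non-coding part, stood by its mean behind only KAT2A and NCOA3 in all 4 groups (24.6 in EP300 KD1 against 25.0 in NS1, and 26.0 in EP300 KD2 against 29.2 in NS2). In EP300 KD1 its libraries overlapped those of KAT8 (23.5). On this scale EP300 and CREBBP overlapped in EP300 KD2 (both 13.2), and NCOA3 and KAT2A in EP300 KD2 and NS2. So did NCOA2 and KAT2B in EP300 KD1, and NCOA1 and NCOA2 in NS1.

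Genes that work with the members were counted from lists of partners, opposing enzymes and readers. Over all rows tested, 64.9% were called in EP300 KD1 (32.6% higher and 32.3% lower). In EP300 KD2 the share was 57.8% (27.9% higher and 29.9% lower). The counts of every list below stand beside these shares, and a call on its own does not set a list apart. Of 8 tested rows of other acetyltransferases, 2 rose and 4 fell in EP300 KD1, and 3 rose and 2 fell in EP300 KD2, with medians of -0.08 and 0.02. ELP3, the catalytic subunit of Elongator, fell with both (log2 -0.34 and -0.26, edgeR adjusted p = 1.2e-07 and 4.5e-06). CLOCK, a circadian transcription factor with acetyltransferase activity, rose with both (0.28 and 0.21), as did GTF3C4, a subunit of a polymerase III factor (0.10 and 0.11). TAF1, a subunit of TFIID, fell slightly with both (-0.11 and -0.17). NAA40, an N-terminal acetyltransferase of histones, fell with the first hairpin (-0.10) and rose with the second (0.32). The median over all rows was -0.01 in EP300 KD1 and -0.00 in EP300 KD2. KAT6A, on the same list, was not analysed here.

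Of 19 tested SAGA and ATAC subunits, 7 rose and 3 fell in EP300 KD1, and 8 rose and 5 fell in EP300 KD2 (medians 0.05 and 0.07). The shares called over all rows were 64.9% and 57.8%. YEATS2, an ATAC subunit that reads acylated histones, rose with both hairpins: it measured 93.4 ± 1.65 CPM in EP300 KD1 against 72.8 ± 2.62 CPM in NS1, and 89.2 ± 2.18 CPM in EP300 KD2 against 72.6 ± 1.55 CPM in NS2 (SD, n = 3). SUPT3H, a SAGA subunit with a histone fold, rose by 0.55 and 0.37 log2 units, and ATXN7L3, of the SAGA deubiquitinase, by 0.15 and 0.14. SGF29, a SAGA and ATAC subunit that binds methylated histone H3, fell with both (log2 -0.47 and -0.36). WDR5, a scaffold shared with ATAC and methyltransferase complexes, fell with the first hairpin (-0.21) and rose with the second (0.14), and TADA3, an adaptor of KAT2A and KAT2B, did the reverse (0.30 and -0.30).

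Of 7 tested partners of KAT6B and KAT7, 2 rose and 2 fell in EP300 KD1, and 3 rose and 1 fell in EP300 KD2 (medians 0.01 and 0.07). BRPF3, a scaffold of KAT7, rose with both (0.21 and 0.23). ING5, a histone-binding subunit, fell with the first (-0.26) and rose with the second (0.29). JADE2, another scaffold, did the reverse (0.22 and -0.23), but NS2 exceeded NS1 by 0.55 and both signs turned against pooled controls (-0.05 and 0.04). BRD1 of that list was not analysed here. Of 9 tested subunits of the KAT8 complexes MSL and NSL, 2 rose and 3 fell in EP300 KD1, and 3 rose and 2 fell in EP300 KD2 (medians -0.05 and 0.09). OGT, the O-GlcNAc transferase, fell with both: it measured 256 ± 3.15 CPM in EP300 KD1 against 312 ± 9.32 CPM in NS1, and 228 ± 3.32 CPM in EP300 KD2 against 323 ± 9.26 CPM in NS2 (SD, n = 3). PHF20, an NSL subunit that reads methylated lysine, rose with both (0.33 and 0.13), and MCRS1 fell with the first (-0.07) and rose with the second (0.09).

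**Figure D4:**
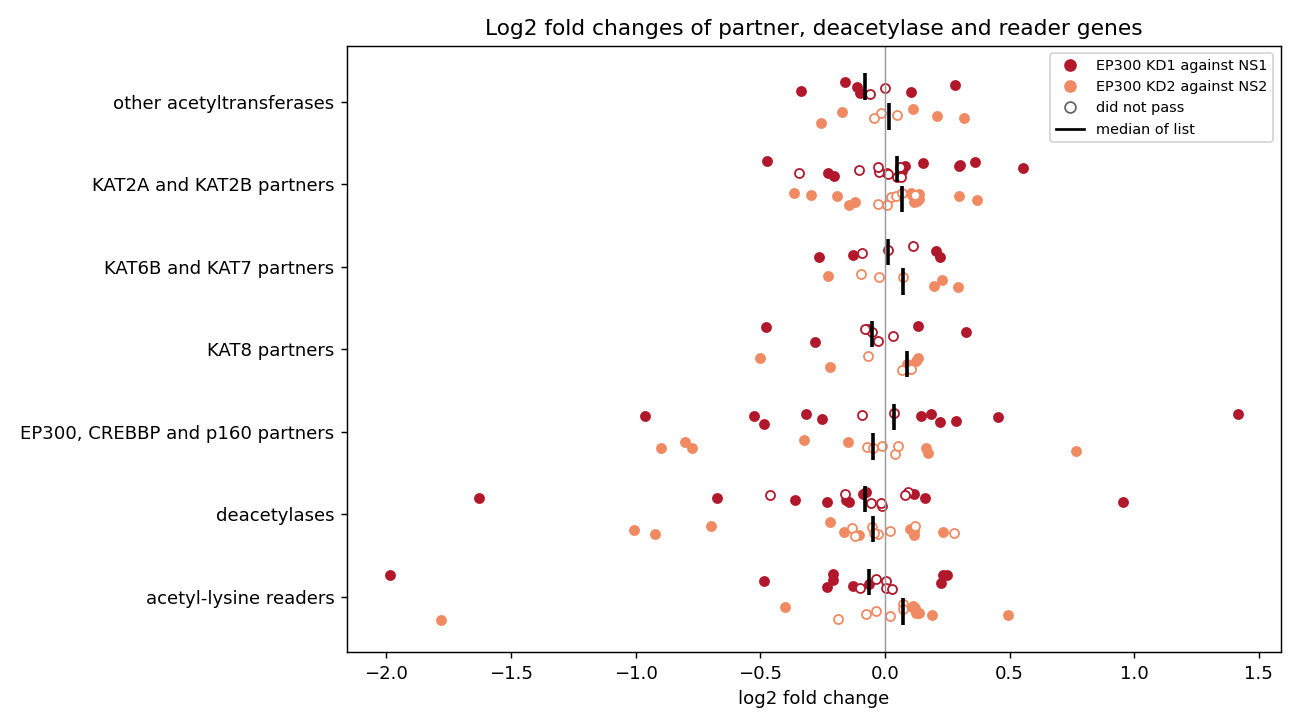
Log2 fold changes of the tested rows of 7 lists (x axis), in EP300 KD1 relative to NS1 and in EP300 KD2 relative to NS2. Filled points passed at an adjusted p under 0.05 and black bars are list medians, all of which lie within 0.1 of 0.

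Partners of EP300, CREBBP and the p160 proteins went both ways, with 6 of 13 tested higher and 5 lower in EP300 KD1, and 3 higher and 5 lower in EP300 KD2 (medians 0.04 and -0.05). NCOA7, a nuclear receptor coactivator outside the p160 family, fell with both: it measured 193 ± 14.4 CPM in EP300 KD1 against 277 ± 6.86 CPM in NS1, and 153 ± 3.90 CPM in EP300 KD2 against 286 ± 8.41 CPM in NS2 (SD, n = 3). The mastermind genes, whose products bring EP300 to Notch complexes, each moved differently. MAML1 rose with both hairpins (log2 0.45 and 0.16), MAML2 fell with both (-0.32 and -0.80), and MAML3 rose with the first (0.22) and fell with the second (-0.32). CARM1, an arginine methyltransferase that binds p160 proteins, rose with both (0.28 and 0.17).

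Of 18 tested deacetylase rows, 3 rose and 8 fell in EP300 KD1, and 4 rose and 6 fell in EP300 KD2 (medians -0.08 and -0.05). These counts include rows near the floor. SIRT2 has rows of 0.469 and 0.419 CPM on average. The first counts as a fall with both hairpins (edgeR adjusted p = 0.048 and 0.047), and the second did not pass. SIRT4, at 0.334 CPM, counts as a rise in EP300 KD1. HDAC9, a class IIa deacetylase, fell most among the genes of at least 1 CPM named from these lists. It measured 3.12 ± 0.135 CPM in EP300 KD1 against 9.67 ± 0.975 CPM in NS1, and 5.01 ± 0.463 CPM in EP300 KD2 against 10.1 ± 0.307 CPM in NS2 (SD, n = 3, log2 -1.63 ± 0.10 and -1.01 ± 0.09, edgeR adjusted p = 2.3e-11 and 1.3e-08). SIRT7, a nuclear sirtuin, fell with both (-0.36 and -0.22), as did mitochondrial SIRT3 (-0.15 and -0.16), while SIRT1 rose (0.12 and 0.23). HDAC1, a class I deacetylase, fell with the first hairpin (-0.07) and rose with the second (0.12), and so did HDAC7 (-0.09 and 0.10).

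Of 15 tested readers, 3 rose and 7 fell in EP300 KD1, and 7 rose and 2 fell in EP300 KD2 (medians -0.06 and 0.07). ATAD2, a bromodomain ATPase, measured 92.2 ± 1.28 CPM in EP300 KD1 against 129 ± 2.86 CPM in NS1, and 179 ± 3.79 CPM in EP300 KD2 against 127 ± 2.00 CPM in NS2 (SD, n = 3). It thus fell with the first hairpin and rose with the second, and the difference of -0.98 passed (SE 0.04, edgeR adjusted p = 2.0e-13). BAZ2B fell with both (-0.23 and -0.40), BAZ1A (0.23 and 0.14) and the BET gene BRD3 (0.25 and 0.12) rose with both, and MLLT1, a YEATS domain reader, fell with the first (-0.06) and rose with the second (0.11). Among the genes named from these lists, calls of small size ended under at least 1 other setting or without 1 library: those of GTF3C4, HDAC1, HDAC7, MCRS1, MLLT1, NAA40 and SIRT1 in EP300 KD1, and those of SIRT3 and TAF1 with both hairpins. The control lines differed from each other by at least as much as 1 or both hairpin changes for GTF3C4 (NS2 against NS1 0.13), NAA40 (-0.16), HDAC1 (-0.14, edgeR adjusted p = 0.00021), MLLT1 (0.11) and MAML1 and MAML3 (0.18 and -0.27), as for JADE2. They also differed for SGF29 (-0.19), MAML2 (-0.16), CARM1 (0.14) and BAZ1A (0.12) by less than either change. TAF1, TADA3 and BAZ2B have further accession rows in the table, and their counts are uncertain. With the first hairpin, CECR2 lay farthest from 0 among the readers (log2 -1.99, and -1.78 with the second). CITED1 did so among the EP300 partners (1.42, and 0.77 with the second). CECR2 and CITED1 averaged 0.207 and 0.573 CPM and are named after their values were seen. The other CITED genes among the EP300 partners, also named after the fact, went the other way. CITED2 fell with both hairpins (-0.96 and -0.77, at 1.04 CPM on average), as did CITED4 (-0.49 and -0.15, at 17.0 CPM).

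Likeness to a member was measured as the Pearson correlation of log2 CPM over the 12 libraries, among 8524 rows (8525 for KAT2B) of at least 10 CPM on average. These libraries share hairpins and controls, so that the values are descriptions. The genes most like EP300 were CDH1, the gene of E-cadherin (r = 0.996), NUPR1 (0.996), PCDH1 (0.995), EPS8 (0.995) and PALLD (0.995). CDH1 measured 211 ± 0.744 CPM in EP300 KD1 against 383 ± 7.75 CPM in NS1, and 181 ± 1.71 CPM in EP300 KD2 against 377 ± 3.75 CPM in NS2 (SD, n = 3). The genes most like CREBBP reached lower values, led by SPEN (r = 0.883), a corepressor of Notch and nuclear receptor signalling, EXPH5 (0.868), NSD3 (0.849), OXNAD1 (0.839) and INO80D (0.838). The genes most like KAT2B were RDH11 (0.979), ZHX3, SORT1, LAMC1 and PTPRE (all 0.978). LAMC1, a laminin chain of the basement membrane, measured 573 ± 7.61 CPM in EP300 KD1 against 379 ± 8.79 CPM in NS1, and 399.7 ± 4.68 CPM in EP300 KD2 against 395 ± 8.69 CPM in NS2, and it stood highest in EP300 KD1, as KAT2B did.

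The labelled cell type was checked against markers. All 10 mammary epithelial markers were detected, but KRT14 was near the floor. It averaged 0.159 CPM in EP300 KD1 against 1.03 CPM in NS1, and 0.136 CPM in EP300 KD2 against 0.521 CPM in NS2. The 10 markers summed to 5393 to 5678 CPM in EP300 KD1 against 6640 to 6902 CPM in NS1, and to 4177 to 4331 CPM in EP300 KD2 against 7746 to 7955 CPM in NS2. Of these markers 8 fell and 2 rose in EP300 KD1, and 9 fell in EP300 KD2, where the remaining 1 did not pass. Over all rows tested, 32.3% fell and 32.6% rose in EP300 KD1, and 29.9% fell and 27.9% rose in EP300 KD2. The 8 fibroblast markers summed to 109 to 112 CPM in EP300 KD1 against 56.4 to 59.2 CPM in NS1, with COL1A2, COL3A1 and LUM at 0 in all libraries, and to 56.4 to 58.3 CPM in EP300 KD2 against 48.5 to 52.8 CPM in NS2. All 4 tested rose in EP300 KD1 and 2 of them in EP300 KD2. The leukocyte markers summed to 67.3 to 74.5 CPM in EP300 KD1 against 52.1 to 63.2 CPM in NS1 and to 37.8 to 40.1 CPM in EP300 KD2 against 65.7 to 67.4 CPM in NS2. Of 3 tested, 1 rose and 1 fell with each hairpin: CD68 averaged 40.1 CPM in EP300 KD1 against 12.6 CPM in NS1 and 22.9 CPM in EP300 KD2 against 17.8 CPM in NS2, while CD14 averaged 29.5 CPM in EP300 KD1 against 46.2 CPM in NS1 and 15.8 CPM in EP300 KD2 against 48.6 CPM in NS2. Of the defining markers MS4A1 was at 0, and neither row of PTPRC averaged over 0.0182 CPM in any group. The 6 endothelial markers summed to 13.1 to 15.7 CPM in EP300 KD1 against 28.8 to 32.9 CPM in NS1 and to 6.40 to 7.04 CPM in EP300 KD2 against 38.6 to 40.6 CPM in NS2, with CLDN5 at 0. Most of these counts came from PECAM1, which fell and averaged 9.67 CPM in EP300 KD1 against 29.3 CPM in NS1 and 5.38 CPM in EP300 KD2 against 38.7 CPM in NS2. Of 3 tested, 2 rose and 1 fell in EP300 KD1, and 1 rose and 1 fell in EP300 KD2, and TEK averaged 4.14 CPM in EP300 KD1 against 0.246 CPM in NS1 and 0.958 CPM in EP300 KD2 against 0.257 CPM in NS2. The 6 markers of HEK293-type and neural-type cells summed to 98.8 to 113 CPM in EP300 KD1 against 49.3 to 55.8 CPM in NS1 and to 113 to 121 CPM in EP300 KD2 against 40.3 to 41.6 CPM in NS2, nearly all of it TUBB3, with PAX2 and STMN2 at 0. The part of these markers in the changes of the 10 genes was not tested.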

How the data were processed

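The authors deposited whole-number counts, not normalised, for RefSeq accessions in 12 libraries. Per the labels' protocols, Trizol RNA went into a stranded TruSeq library kit for mRNA. According to the submitters' processing notes, reads were aligned to hg38 with HISAT2 2.1.0 and counted with featureCounts, whose annotation, version, strand setting and treatment of multi-mapping reads were not found in any source used. Symbols came from a RefSeq table (28134 rows) and GENCODE v29 (486 rows), and 474 rows with 0.313% of the counts had none. Any 2 libraries of a group had a chi-square of 1.86 to 4.54 per degree of freedom over rows with sums of at least 20, more than sampling noise gives, and were kept apart.

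Rows passing edgeR's filterByExpr were TMM-scaled and fitted with edgeR 4.0.16 in R 4.3.3 (quasi-likelihood, all libraries, a coefficient for each of 4 groups). P-values were adjusted over the 13424 rows by Benjamini-Hochberg, with a threshold of 0.05. The common biological coefficient of variation was 0.0300. SEs were derived from the test statistic. Procedures were tested on simulated data. Lengths per kilobase are those of GENCODE v29 transcripts. The 10 members were always named. From each list, up to 4 genes of at least 1 CPM called in 1 direction with both hairpins (smallest p for their average) and up to 2 called in opposite directions were named, as were the 5 rows most like EP300, CREBBP and KAT2B. One marker gene of another cell type is not reported here. Members and lists were chosen with earlier results of these data known. Alternatives included library totals, upper-quartile and DESeq2 size factors, no filter, DESeq2 1.42.0, limma-voom (limma 3.58.1), a replicate block, pooled controls, summed rows of a symbol and leaving out each library.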

Additional observations from a re-analysis of the deposited data

Results flagged for a closer look

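For 6 of the 10 genes the change with the first hairpin differed from that with the second by edgeR's test of the difference, (EP300 KD1 - NS1) - (EP300 KD2 - NS2), where 50.8% of all rows passed. The difference was 0.57 ± 0.04 log2 units for NCOA3 (SE, adjusted p = 1.7e-09) and 0.55 ± 0.11 for KAT2B (adjusted p = 0.00030). Both had all EP300 KD1 libraries above all NS1 libraries and overlapping libraries in the second set. KAT2A had a difference of -0.30 ± 0.04 (adjusted p = 7.9e-06), with lower libraries in EP300 KD1 than in NS1 and higher ones in EP300 KD2 than in NS2. EP300 itself had a difference of 0.18 ± 0.05 (adjusted p = 0.0049), a smaller fall with the first hairpin. The remaining differences were 0.15 ± 0.05 for KAT7 (adjusted p = 0.017) and 0.20 ± 0.08 for NCOA1 (adjusted p = 0.047). The control lines differ from each other for NCOA3, KAT7 and KAT2A, and the hairpin and its control line cannot be told apart in this test.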

How the results depend on the processing

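Counts of rows called kept within 1.5 times their value under every setting run; over fits without 1 library they ranged from 8209 to 8765 in EP300 KD1 against NS1, 7255 to 7902 in EP300 KD2 against NS2, and 6405 to 6711 for the difference between hairpins. Of the members' values in these 3 comparisons, 596 kept direction and side of the threshold, 26 lost the call, 10 gained one and 8 turned sign, all 8 among values that had not passed. The cause of each change was not tested. In EP300 KD1 against NS1, KAT7 turned to 6.3e-05 with upper-quartile factors and passed at -0.13 with pooled controls, while KAT8 (0.12) and NCOA1 (0.14) lost their calls with DESeq2. In EP300 KD2 against NS2, library totals turned CREBBP (0.0060) and NCOA1 (0.0098). KAT2A passed with library totals (0.13), upper-quartile factors (0.107), DESeq2 size factors (0.071) and no filter (0.107). NCOA3 passed with library totals (0.11), upper-quartile factors (0.093), no filter (0.093) and pooled controls (0.17), and KAT7 lost its call with pooled controls (-0.055). Pooled controls turned JADE2 to -0.053 in EP300 KD1 and 0.045 in EP300 KD2. In the difference between hairpins, EP300 was lost with library totals (0.11), and CREBBP turned with library totals (-0.033) and no filter (-0.019). KAT7 was lost with library totals (0.081), no filter (0.095) and DESeq2 (0.13). NCOA1 was lost with library totals (0.13), upper-quartile factors (0.17), DESeq2 size factors (0.18), no filter (0.146), DESeq2 (0.18) and summed rows (0.19). Without 1 library each, the ranges in EP300 KD1 against NS1 were 0.087 to 0.141 for KAT8, 0.111 to 0.168 for NCOA1 and 0.128 to 0.227 for NCOA2. In EP300 KD2 against NS2 they were -0.097 to -0.039 for CREBBP, -0.010 to 0.074 for KAT2B, -0.0034 to 0.048 for KAT8 and -0.086 to 0.00032 for NCOA1. For the difference they were 0.121 to 0.175 for KAT7 and 0.143 to 0.229 for NCOA1, which was lost without NS1 replicate 1 or 2, NS2 replicate 2, EP300 KD1 replicate 3 or EP300 KD2 replicate 1. Between NS2 and NS1 they were -0.0076 to 0.058 for EP300, -0.030 to 0.052 for KAT2B and -0.053 to 0.0044 for KAT8. Within each hairpin line and its control, libraries with the same replicate number did not deviate together (correlations -0.243 to 0.111 over 6 pairs). Pairs across the other lines were not examined, so that batches shared by number are not settled. A replicate block gave 8748 rows in EP300 KD1 against NS1 (8711 without it), 7802 in EP300 KD2 against NS2 (7762), 6858 for the difference (6818) and 3764 for NS2 against NS1 (3697), and changed no member's call. Depth limits KAT2B most, at 210 to 365 counts a library.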
